A study of Mus musculus with 24 samples.

Results

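Wnt3, Tbx2 and Hoxb9 are 3 genes named in limb patterning, and each was followed here through 1 transcript in RNA and ribosome footprints of the mouse forelimb. The members were chosen by transcript, ENSMUST00000000127.5 for Wnt3, ENSMUST00000000095.6 for Tbx2 and ENSMUST00000000010.8 for Hoxb9, and make up 3 of the 21960 transcripts in the authors' table. The table itself pairs no ID with a gene name, so these names are those under which the transcripts were chosen. The libraries came from forelimbs of embryos at E10.5. Each of 4 genotypes had 3 replicates, each sequenced as rRNA-depleted total RNA (RNA) and as ribosome-protected fragments (RPF), which gives 24 libraries.

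Every embryo carried a floxed copy of Rps6, the gene of a small ribosomal subunit protein. The controls (Rps6lox/+;Trp53+/+) lack Cre and are written Rps6 WT, Trp53 WT. With the Prx1Cre transgene (Prx1Cre;Rps6lox/+;Trp53+/+) the floxed copy is a target of Cre, and these limbs are written Rps6 het, Trp53 WT. The same pair without p53 is Rps6lox/+;Trp53-/-, written Rps6 WT, Trp53 null, and Prx1Cre;Rps6lox/+;Trp53-/-, written Rps6 het, Trp53 null. Every Rps6 het group carries Prx1Cre and no Rps6 WT group does. An effect of the transgene itself therefore cannot be told apart from that of the Rps6 deletion in any comparison below. Prx1Cre is active in limb bud mesenchyme and not in the limb ectoderm, so a forelimb labelled Rps6 het is a mixture of cells with and without the deletion. One replicate pools the limb pairs of 2 embryos of the same genotype, and its RNA and RPF libraries are parts of the same lysates. The recombination of Rps6, the loss of Trp53 and the markers of limb cell types were not checked here, since no other transcript was matched to a gene name.

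The vertebrate limb bud grows out under signals from the apical ectodermal ridge, a strip of ectoderm along its distal edge. Wnt3 encodes a secreted WNT ligand that the limb ectoderm makes. It acts through β-catenin, and the ridge does not form or persist without it. Tbx2 encodes a T-box transcription factor, largely a repressor, expressed at the anterior and posterior margins of the bud mesenchyme, where it takes part in digit patterning. Hoxb9 encodes a homeodomain transcription factor of the Hoxb cluster, expressed in the trunk and lateral plate mesoderm, where Hox9 genes help to place and polarise the forelimb. A ligand of the ectoderm is thus set beside a pair of transcription factors of the mesoderm, the layer in which Prx1Cre acts.

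In RefSeq's annotation of GRCm38.p6, a patch of the build GRCm38 named in the submitters' processing notes, all 3 genes lie on chromosome 11, which also carries Trp53. Wnt3 spans chr11:103774175-103818021, Tbx2 chr11:85832615-85841948 and Hoxb9 chr11:96271330-96276595. Their starts lie 34.19, 16.25 and 26.69 Mb from the start of Trp53. Whether other alleles of this chromosome differ between Trp53 null and Trp53 WT embryos was not tested. The spans of Tbx2 and Hoxb9 overlap 0 other RefSeq genes. The span of Wnt3 shares 1098 bases with that of Wnt9b, another WNT gene, whose promoter in RefSeq's table lies on the minus strand. Whether the authors' counts used strand is not given in the sources used here, so reads of the shared bases cannot be told apart. Exons, introns and UTRs were not placed, because the annotation table holds whole genes only.

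Of the 3 genes, 1 matched RefSeq's promoter table, Wnt3, and Tbx2 and Hoxb9 did not. The bases upstream of Wnt3 are shown because it holds 4 of the 5 calls made over the 45 tests of these transcripts. The comparisons behind those 4 calls called 24.8%, 9.55% and 13.3% of all transcripts in RNA and 24.9% in RPF. The stretch chr11:103773925-103774174 (GRCm38.p6, plus strand) ends at the base before the annotated start. Capitals mark matches to CCAAT (read here as ATTGG on the other strand) and to GGGCGG, both searched on both strands.
Wnt3 upstream: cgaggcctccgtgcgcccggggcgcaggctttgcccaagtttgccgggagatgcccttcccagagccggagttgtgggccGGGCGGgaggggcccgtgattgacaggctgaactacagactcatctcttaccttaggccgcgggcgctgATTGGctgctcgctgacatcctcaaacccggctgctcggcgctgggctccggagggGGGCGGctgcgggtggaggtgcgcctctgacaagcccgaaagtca
It holds 1 match to CCAAT and 2 to GGGCGG, motifs found in 33.8% and 32.7% of the 32851 upstream stretches of the same length in RefSeq's table. The p53 half-site consensus had 0 matches in this window and is found in 7.13% of all of them. The GC content of the stretch was 68%, against a median of 52.4%. A match in these letters is a description of the sequence and says nothing of binding.

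Total counts ranged from 14291854 to 29104669 in the RNA libraries and from 7026056 to 16835045 in the RPF libraries. Levels are given as CPM, the count over a library total scaled by TMM. A count of 3, taken as a floor for reference, corresponds to 0.101 to 0.214 CPM in RNA libraries and 0.174 to 0.439 CPM in RPF libraries. No value was raised to it, and the lowest count of these transcripts was 6. That floor and the counting errors below cover counting only. Over the 12 libraries of each kind, Wnt3 had 221 to 413 RNA counts and 67 to 146 footprints, Tbx2 had 602 to 1295 and 217 to 536, and Hoxb9 had 28 to 60 and 6 to 22. Counting alone therefore gives a coefficient of variation of 5.79% for Wnt3 RNA and 9.55% for Wnt3 footprints, 3.54% and 5.46% for Tbx2, and 16.5% and 31.4% for Hoxb9. All 3 transcripts passed the filter on low counts in each of the RNA, RPF and combined fits. By the table's name, RPF counts cover the coding part of a transcript and RNA counts may cover the whole of it. Levels are therefore not compared between genes.

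Wnt3 RNA was higher in Rps6 het than in Rps6 WT limbs when Trp53 was intact. In Rps6 WT, Trp53 WT the 3 replicates measured 11.5, 12.6 and 12.1 CPM, and in Rps6 het, Trp53 WT they measured 18.0, 17.6 and 16.1 CPM. Every Rps6 het value lay above every Rps6 WT value, and 41.5% of transcripts likewise did not overlap, in either direction. The means were 12.1 ± 0.568 and 17.2 ± 0.981 CPM (SD, n = 3). The log2 fold change was 0.51 ± 0.082 (SE), a 1.42-fold rise, with edgeR adjusted p = 0.000367 by the quasi-likelihood test over 14411 transcripts. This comparison called 24.8% of all transcripts tested, and 9.96% of them had a larger absolute change than Wnt3. In whole limbs, a change in the number of cells of a type cannot be told apart from a change in RNA per cell.

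**Figure D1:**
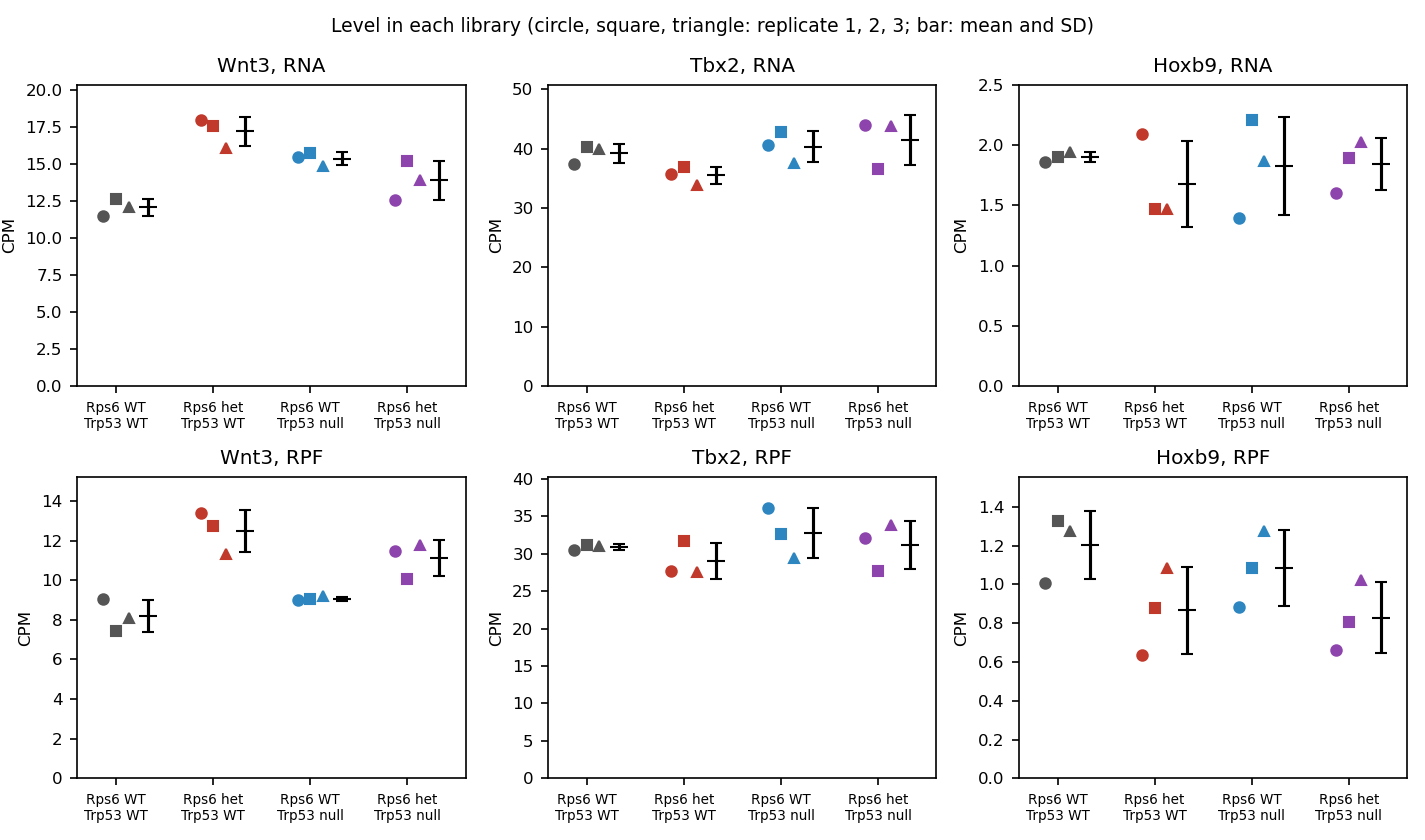
Level of each transcript in CPM (vertical axes, from 0) in the 4 genotypes, RNA above and RPF below; points are single libraries, shaped by replicate, and bars are mean and SD of 3. Wnt3 in Rps6 het, Trp53 WT lies above the controls in both kinds of library, while the 4 genotypes of Hoxb9 overlap throughout.

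Wnt3 footprints rose in the same limbs. They measured 9.05, 7.42 and 8.11 CPM in Rps6 WT, Trp53 WT and 13.4, 12.7 and 11.3 CPM in Rps6 het, Trp53 WT. Again the groups did not overlap, as for 37.7% of the transcripts tested in RPF. The log2 fold change was 0.58 ± 0.114 (SE), or 1.50-fold, with edgeR adjusted p = 0.000392, in a comparison that called 24.9% of 12147 transcripts. Leaving out any 1 of the 6 pools kept this call and the call in RNA. The RNA change then lay between 0.471 and 0.551, and the RPF change between 0.523 and 0.666.

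Without Trp53, no change of Wnt3 RNA with Rps6 het was called. It measured 15.5, 15.7 and 14.9 CPM in Rps6 WT, Trp53 null and 12.6, 15.2 and 14.0 CPM in Rps6 het, Trp53 null. These ranges overlap, and the log2 fold change was −0.15 ± 0.083 (SE), with a 95% interval from −0.32 to 0.03 and edgeR adjusted p = 0.526. The comparison called 0.0694% of transcripts. The difference between the change in Trp53 WT and that in Trp53 null was itself tested, as the interaction of Rps6 and Trp53. It was 0.66 ± 0.116 (SE) in log2, with edgeR adjusted p = 0.00316, where 9.55% of transcripts were called. It was called in all 17 alternative fits, at 0.588 to 0.715, with adjusted p from 0.000439 (DESeq2) to 0.0137 (edgeR).

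Footprints of Wnt3 in the Trp53 null background measured 9.0, 9.03 and 9.19 CPM in Rps6 WT and 11.5, 10.1 and 11.8 CPM in Rps6 het. The groups did not overlap, as was the case for 16.6% of the transcripts tested in this comparison. The Rps6 WT values varied by 1.09% of their mean, less than the 9.57% that counting alone gives. The separation may therefore look firmer than these counts allow. The log2 fold change of 0.30 ± 0.113 (SE) had a 95% interval from 0.06 to 0.53 but was not called (edgeR adjusted p = 0.263, unadjusted p = 0.0145 by edgeR), in a comparison that called 0.906% of transcripts. For RPF the interaction was 0.29 ± 0.161 (SE), with an interval from −0.04 to 0.62, and was not called (edgeR adjusted p = 0.321), where 7.06% were. Thus a difference between the backgrounds passed the test in the RNA of Wnt3 and did not in its footprints; the test of RNA against footprints is given with translational efficiency.

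Across both backgrounds, the 6 Rps6 WT libraries held 7.42 to 9.19 CPM of Wnt3 footprints with a median of 9.02, and the 6 Rps6 het libraries held 10.1 to 13.4 with a median of 11.6. Such a complete separation upward was seen in 2.42% of the transcripts tested in RPF, and this property of Wnt3 was picked out after its values were seen. In RNA the same 6 and 6 libraries overlapped, with 11.5 to 15.7 and 12.6 to 18.0 CPM.

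The effect of Trp53 loss on Wnt3 was compared in each Rps6 background. With Rps6 intact, all 3 Trp53 null RNA libraries lay above all 3 controls, where 22.5% of transcripts did not overlap. The difference was 0.34 ± 0.084 (SE) in log2, or 1.27-fold. It was not called (edgeR adjusted p = 0.131, unadjusted p = 0.000864 by edgeR), in a comparison that called 0.118% of transcripts. With only the genotypes of this contrast in the fit it was called, at 0.345 with edgeR adjusted p = 0.0467. In Rps6 het limbs the direction was the opposite, and Wnt3 RNA fell by 0.31 ± 0.080 (SE) in log2 on loss of Trp53 (edgeR adjusted p = 0.0173), where 13.3% of transcripts were called. These groups did not overlap, as for 29.9% of transcripts. That call was lost without replicate 1 of Rps6 het, Trp53 WT (−0.275, edgeR adjusted p = 0.0833), without replicate 1 of Rps6 het, Trp53 null (−0.244, edgeR adjusted p = 0.0793) and with only the genotypes of the contrast in the fit (−0.307, edgeR adjusted p = 0.0654).

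Footprints of Wnt3 did not pass the test for Trp53 in either Rps6 background. The log2 fold change was 0.14 ± 0.116 (SE) in Rps6 WT, where 0.0741% of transcripts were called, and −0.15 ± 0.112 (SE) in Rps6 het, where 15.1% were. In order of mean RNA level, Wnt3 thus ran from Rps6 WT, Trp53 WT at 12.1 CPM through Rps6 het, Trp53 null at 13.9 and Rps6 WT, Trp53 null at 15.4 to Rps6 het, Trp53 WT at 17.2. Neighbours in this order overlap except the last pair. The share of all transcripts that do not overlap between that last pair of genotypes was not counted. The RNA of Tbx2 did not overlap between them either. In footprints the order was Rps6 WT, Trp53 WT at 8.19, Rps6 WT, Trp53 null at 9.07, Rps6 het, Trp53 null at 11.1 and Rps6 het, Trp53 WT at 12.5. There the Rps6 WT groups overlap each other, as do the Rps6 het groups, and every Rps6 WT library lies below every Rps6 het library. The comparisons along these orders share libraries and are not independent of each other.

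**Figure D2:**
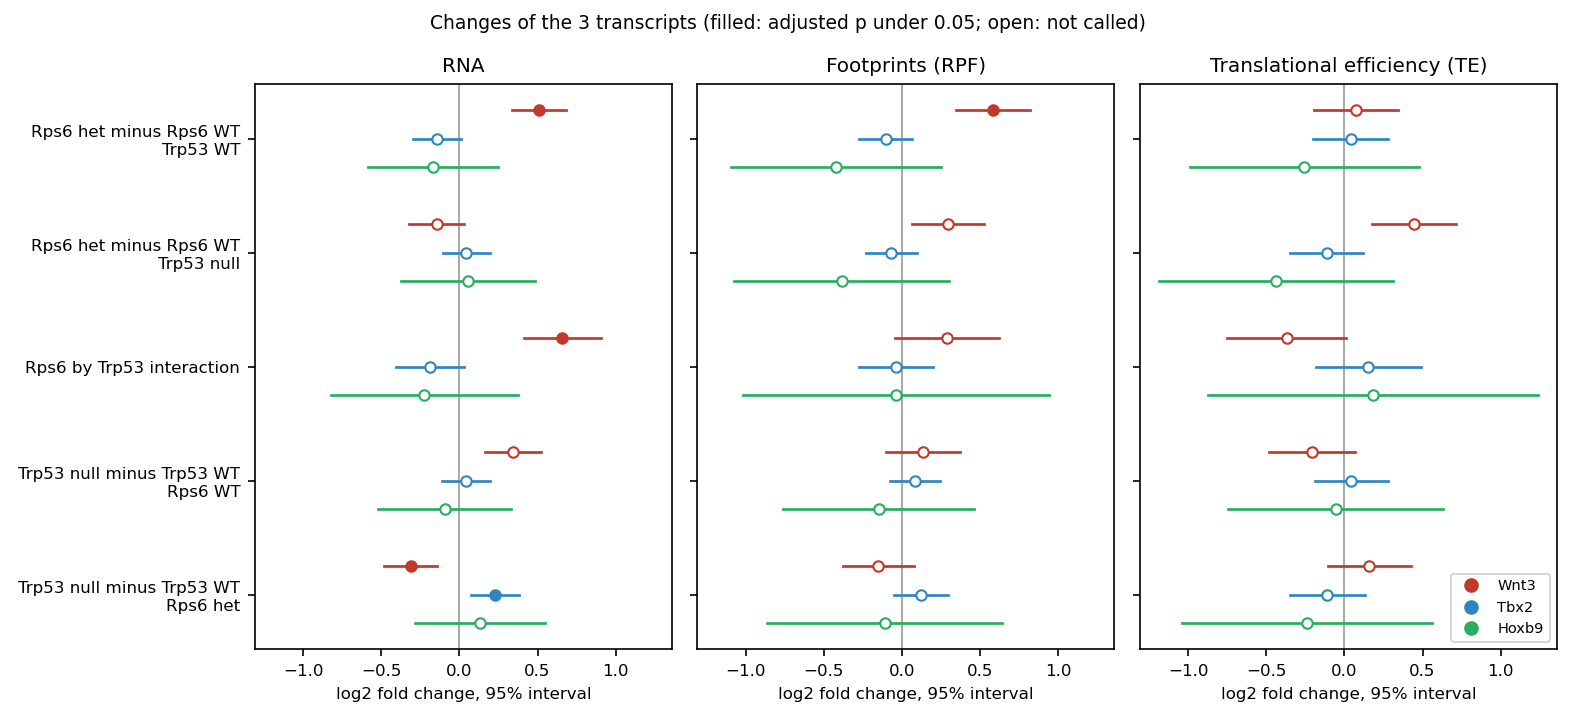
Log2 fold change of each transcript (horizontal axes) for the 5 contrasts (rows) in RNA, RPF and translational efficiency; lines are 95% intervals, filled points have an adjusted p under 0.05 and open points do not. The filled points are 4 for Wnt3 and 1 for Tbx2, and the intervals of Hoxb9 are the widest.

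Tbx2 ranged from 33.9 to 43.9 CPM in RNA and from 27.6 to 36.2 CPM in RPF, with 1.29-fold and 1.31-fold between the extremes. Its RNA measured 37.4, 40.3 and 39.9 CPM in Rps6 WT, Trp53 WT and 35.8, 36.8 and 33.9 CPM in Rps6 het, Trp53 WT. The ranges do not overlap, which holds for 41.5% of transcripts, but the log2 fold change of −0.14 ± 0.072 (SE) was not called (edgeR adjusted p = 0.161). Its 95% interval ran from −0.30 to 0.01. In Trp53 null, Tbx2 RNA measured 40.5, 42.9 and 37.6 CPM in Rps6 WT and 43.9, 36.6 and 43.8 CPM in Rps6 het. The last group held both the highest and the lowest of these 6 values, and the log2 fold change was 0.04 ± 0.072 (SE), with an interval from −0.11 to 0.20.

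Tbx2 was called in 1 comparison, the RNA change on Trp53 loss in Rps6 het limbs, where 13.3% of all transcripts were called and 26.0% had a larger absolute change. In Rps6 het limbs its RNA was 35.5 ± 1.46 CPM (SD, n = 3) with Trp53 and 41.4 ± 4.16 CPM without it. The ranges overlap: replicate 2 of Rps6 het, Trp53 null, at 36.6 CPM, lay below replicate 2 of Rps6 het, Trp53 WT. The log2 fold change of 0.23 ± 0.071 (SE), or 1.17-fold, had edgeR adjusted p = 0.0461. The call was lost in 5 of the 6 fits that left out a pool, where edgeR adjusted p reached 0.16. It was kept without replicate 2 of Rps6 het, Trp53 null, with a change of 0.306 and edgeR adjusted p = 0.00563. It was also lost with only the genotypes of the contrast in the fit (0.231, edgeR adjusted p = 0.0985). The interaction for Tbx2 RNA, −0.19 ± 0.102 (SE), was not called (edgeR adjusted p = 0.249).

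No change of Tbx2 footprints was called, 0 of 5, in comparisons that called 24.9%, 0.906%, 7.06%, 0.0741% and 15.1% of all transcripts, so that most transcripts were likewise not called in each. They measured 30.5, 31.2 and 31.1 CPM in Rps6 WT, Trp53 WT and 27.7, 31.8 and 27.6 CPM in Rps6 het, Trp53 WT. In Trp53 null they measured 36.2, 32.7 and 29.4 CPM in Rps6 WT and 32.1, 27.7 and 33.8 CPM in Rps6 het. All 6 pairs of genotypes overlap. The Rps6 change was −0.10 ± 0.083 (SE) in Trp53 WT, with an interval from −0.28 to 0.07, and −0.07 ± 0.080 (SE) in Trp53 null, with an interval from −0.23 to 0.10. Trp53 loss gave 0.09 ± 0.078 (SE) in Rps6 WT and 0.12 ± 0.085 (SE) in Rps6 het, values that were not called, and the interaction was −0.04 ± 0.115 (SE). In RNA, Trp53 loss with Rps6 intact gave 0.04 ± 0.072 (SE).

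Hoxb9 was the least covered of the 3 transcripts. Its RNA counts were 42, 38 and 52 in Rps6 WT, Trp53 WT, 46, 28 and 30 in Rps6 het, Trp53 WT, 30, 31 and 31 in Rps6 WT, Trp53 null and 40, 35 and 60 in Rps6 het, Trp53 null. On the CPM scale the group means were 1.90 ± 0.041, 1.68 ± 0.359, 1.82 ± 0.406 and 1.84 ± 0.216 (SD, n = 3). The SD of the controls, 2.13% of their mean, was smaller than the 15.2% that counting alone gives. All 6 pairs of genotypes overlap. The Rps6 change in RNA was −0.17 ± 0.196 (SE) in log2 with Trp53, with a 95% interval from −0.59 to 0.25, and 0.05 ± 0.201 (SE) without it, from −0.37 to 0.48. A change of the size seen for Wnt3 RNA, 0.51 upward, lies outside the interval with Trp53 and only just outside that without it. Without replicate 2 of Rps6 WT, Trp53 null, the change without Trp53 was 0.198 ± 0.219 (SE). A rise of that size in Trp53 null is therefore not excluded. Trp53 loss gave −0.10 ± 0.202 (SE) in Rps6 WT and 0.13 ± 0.196 (SE) in Rps6 het, and the interaction was −0.22 ± 0.281 (SE).

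Hoxb9 footprints numbered 13, 12 and 22 in Rps6 WT, Trp53 WT and 6, 6 and 14 in Rps6 het, Trp53 WT. In Trp53 null they numbered 11, 13 and 15 in Rps6 WT and 8, 8 and 11 in Rps6 het. The libraries with 6 counts had totals of 9781167 and 7026056. On the CPM scale, which corrects for depth, the means were 1.2 ± 0.174, 0.867 ± 0.225, 1.08 ± 0.196 and 0.829 ± 0.182 (SD, n = 3) in the same order. Both Rps6 het means lay below both Rps6 WT means, with overlapping ranges. The log2 fold changes were −0.42 ± 0.327 (SE) in Trp53 WT and −0.39 ± 0.335 (SE) in Trp53 null, neither of them called (edgeR adjusted p = 0.394 and 0.734). Their 95% intervals, −1.10 to 0.25 and −1.07 to 0.30, hold both no change and a fall of more than 1 in log2. Without the filter on low counts the SEs were larger, at 0.378 in Trp53 WT and 0.387 in Trp53 null. The intervals may thus be too narrow for counts this low, and no conclusion is drawn from their upper ends. Trp53 loss gave −0.15 ± 0.296 (SE) in Rps6 WT and −0.11 ± 0.367 (SE) in Rps6 het, and the interaction of −0.04 ± 0.477 (SE) had the widest interval of the RNA and RPF tests, from −1.02 to 0.94. No test of Hoxb9 was called, 0 of 15. Among all transcripts, the share called in these comparisons ran from 0.0694% to 24.8% in RNA, from 0.0741% to 24.9% in RPF and from 0% to 1.17% in TE, so an uncalled transcript was the common case in each.

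Translational efficiency (TE) was taken as the RPF change less the RNA change, fitted over all 24 libraries. None of the 15 TE tests of the 3 transcripts was called (0 of 15), in fits over 14080 transcripts. The share of all transcripts called was 1.17% for Rps6 in Trp53 WT, 0.199% for Rps6 in Trp53 null, 0.071% for the interaction, 0% for Trp53 in Rps6 WT and 0.163% for Trp53 in Rps6 het. Behind the 0% stand 731 transcripts with an unadjusted p under 0.05 by edgeR, and DESeq2 and limma-voom also called 0. For Wnt3 in Trp53 WT, the RNA rose by 0.51 and footprints by 0.58, and the TE change was 0.08 ± 0.131 (SE) with an interval from −0.19 to 0.34. In Trp53 null the TE change of Wnt3 was 0.44 ± 0.131 (SE), with an interval from 0.17 to 0.71. It was not called (edgeR adjusted p = 0.34, unadjusted p = 0.00227 by edgeR), where 0.199% of transcripts were, and with the pool as a block its edgeR adjusted p was 0.275. The difference between these TE changes was −0.37 ± 0.185 (SE), with edgeR adjusted p = 0.796. This is also the test of whether the interaction of Wnt3 differed between footprints and RNA. Trp53 loss gave a TE change of −0.21 ± 0.134 (SE) for Wnt3 in Rps6 WT and 0.16 ± 0.128 (SE) in Rps6 het.

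The same quantity was read pool by pool. The ratio of RPF to RNA CPM of Wnt3 was 0.582, 0.574 and 0.618 in Rps6 WT, Trp53 null and 0.913, 0.661 and 0.845 in Rps6 het, Trp53 null, with every Rps6 het pool above every Rps6 WT pool. The ratios of these groups likewise did not overlap, in either direction, for 12.3% of the 12116 transcripts tested in both kinds of library. In Trp53 WT it was 0.786, 0.587 and 0.669 in Rps6 WT and 0.744, 0.725 and 0.703 in Rps6 het, where the second group lay inside the range of the first. For Tbx2 the ratio stayed between 0.731 and 0.893 in all 12 pools, and for Hoxb9 it ranged from 0.304 to 0.739. The TE intervals of Tbx2 ran from −0.20 to 0.28 in Trp53 WT and from −0.35 to 0.12 in Trp53 null, and those of Hoxb9 from −0.99 to 0.48 and from −1.19 to 0.31.

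Because the 3 transcripts are counted in the same libraries, their ratio within a library does not depend on the scaling. In RNA there were 30.8, 31.4 and 30.4 Wnt3 counts per 100 Tbx2 counts in Rps6 WT, Trp53 WT and 50.3, 47.7 and 47.5 in Rps6 het, Trp53 WT. In Trp53 null there were 38.2, 36.7 and 39.5 in Rps6 WT and 28.6, 41.6 and 31.9 in Rps6 het. The first pair of groups is fully separate and the second overlaps. In RPF the ratio was 29.7, 23.8 and 26.1 in Rps6 WT and 48.3, 40.1 and 41.0 in Rps6 het with Trp53, and 24.9, 27.6 and 31.2 against 35.7, 36.4 and 34.9 without it, with no overlap in either. For Trp53 loss the ratio also separated, in RNA in both Rps6 backgrounds and in RPF in Rps6 het. Each of these separations had p = 0.1 in a two-sided exact permutation test, the smallest that 3 against 3 allows. Adjusted over the 16 comparisons of this kind it was 0.267. The share of all transcripts that separate on their ratio to Tbx2 was not counted. On CPM alone, Rps6 het and Rps6 WT in Trp53 WT did not overlap for 41.5% of transcripts in RNA and 37.7% in RPF. A ratio within a library shows unequal change of the pair and not which of them changed.

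**Figure D3:**
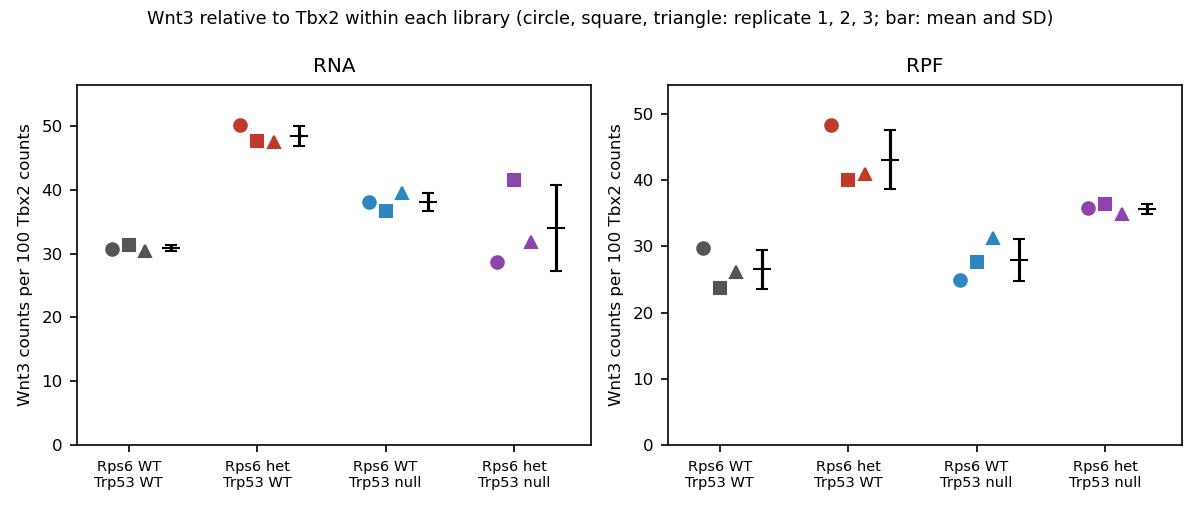
Wnt3 counts per 100 Tbx2 counts of the same library (vertical axes, from 0) by genotype, RNA on the left and RPF on the right; points are libraries, shaped by replicate, and bars are mean and SD of 3. The Rps6 het, Trp53 WT libraries are the highest of each panel, at 47.5 to 50.3 in RNA and 40.1 to 48.3 in RPF.

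Hoxb9 per 100 Tbx2 counts showed no such separation. In RNA the group means lay between 4.49 and 4.85, and in RPF they were 3.89 ± 0.514 and 3.00 ± 0.842 (SD, n = 3) in Rps6 WT and Rps6 het with Trp53, and 3.37 ± 0.946 and 2.66 ± 0.528 without it. All 8 of these comparisons overlap.

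Likeness of pattern was measured over the 12 RNA and 12 RPF libraries as the mean of the Pearson correlations of log2 CPM in the 2 kinds, against 12115 other transcripts tested in both. These values describe points that share libraries and genotypes, and no p is given. The patterns most like that of Wnt3 were those of ENSMUST00000127405.1, at 0.946 in RNA and 0.901 in RPF, and ENSMUST00000170953.2, at 0.864 and 0.950, neither of them matched to a gene name here. The best matches of Tbx2 and Hoxb9 reached means of 0.770 and 0.739. Among themselves the 3 transcripts were not alike, with means of −0.34 for Wnt3 and Tbx2, −0.44 for Wnt3 and Hoxb9 and 0.17 for Tbx2 and Hoxb9. The value for Wnt3 and Hoxb9 was −0.72 in RPF and −0.16 in RNA.

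The calls differed in how far they held when the fit was altered. Both Rps6 changes of Wnt3 in Trp53 WT and its RNA interaction were called in every alternative fitted, while the changes in RNA on loss of Trp53 in Rps6 het limbs were called in 9 of 12 for Wnt3 and in 6 of 12 for Tbx2. The shares called among all transcripts also moved when 1 pool was left out. In RNA, the 10 transcripts called for Rps6 het in Trp53 null became 47 without replicate 2 of Rps6 het, Trp53 null and 4 without replicate 1 of that group. The 1376 of the RNA interaction became 641 without replicate 1 of Rps6 het, Trp53 WT, and the 3580 for Rps6 het in Trp53 WT became 2211 without replicate 3 of the controls. The 17 for Trp53 loss with Rps6 intact became 6 without replicate 2 of Rps6 WT, Trp53 null, and the 1919 for that loss in Rps6 het became 1151 without replicate 1 of Rps6 het, Trp53 WT. In RPF, the 857 of the interaction became 513 without replicate 3 of Rps6 het, Trp53 null, the 110 for Rps6 het in Trp53 null became 60 without replicate 1 of Rps6 WT, Trp53 null, and the 9 for Trp53 loss with Rps6 intact became 4 without replicate 3 of that group. In TE, the 165 for Rps6 het in Trp53 WT became 58 without replicate 3 of the controls, and the 28 for Rps6 het in Trp53 null became 0 without replicate 2 of Rps6 WT, Trp53 null. The 10 of the TE interaction ranged from 3 to 16, and the 23 for Trp53 loss in Rps6 het from 14 to 23.

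**Figure D4:**
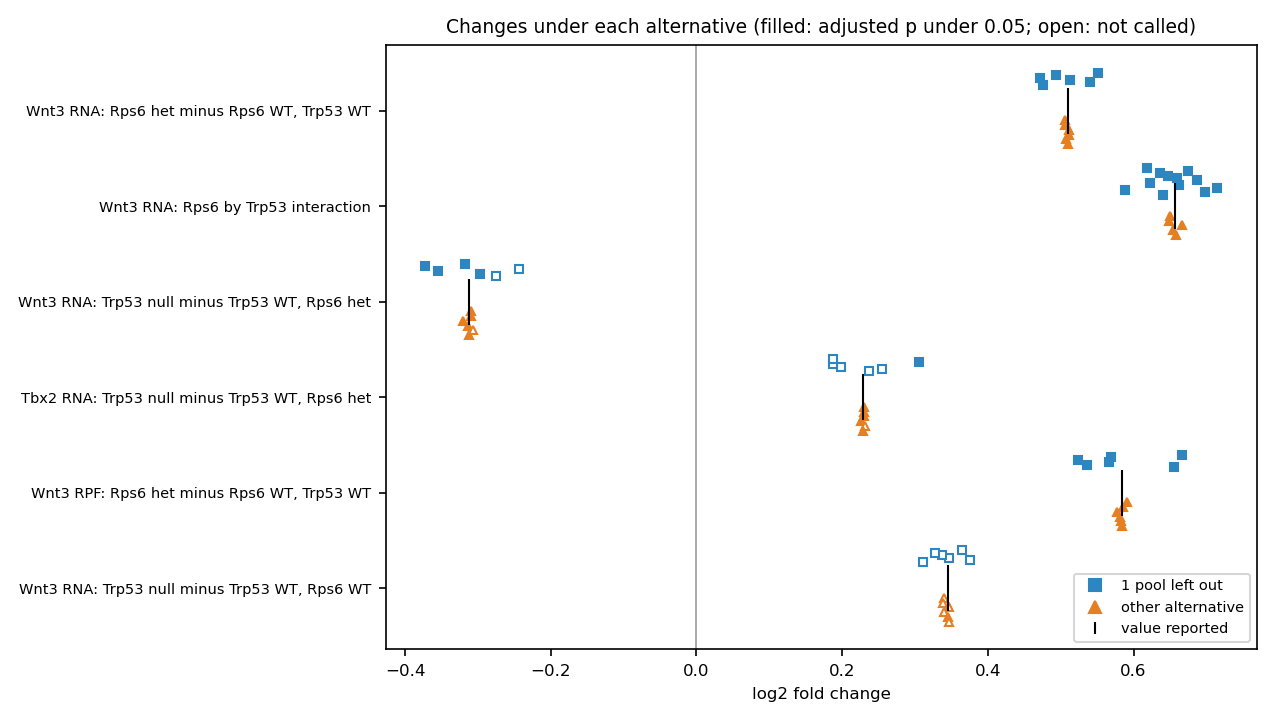
Log2 fold change (horizontal axis) of the 5 called changes, and of Wnt3 RNA for Trp53 loss with Rps6 intact, under each alternative; squares leave out 1 pool, triangles change another choice, bars give the reported value, and open symbols are not called. Directions hold throughout, and the open symbols fall in the last row and in the rows of Trp53 loss in Rps6 het limbs.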

How the data were processed

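The authors deposited raw counts per transcript, which per the table's name cover coding sequences for RPF. For RNA the name says total, which may mean whole transcripts or total RNA. Bowtie2, UMI-tools and the build GRCm38 (mm10) are named, with no role, in the submitters' processing notes; the counter and annotation release are not given in the sources used here. From the counts, edgeR 4.0.16 in R 4.3.3 was run here (filterByExpr with a minimum count of 10, TMM within each library kind, quasi-likelihood F test, Benjamini-Hochberg adjustment over all transcripts tested, adjusted p under 0.05 called). RNA and RPF were fitted apart over the 4 genotypes, and TE in 1 model of all 24 libraries. SE was derived from F, and 95% intervals from SE and the test's degrees of freedom. At low counts such an SE can fall below the counting error, so those intervals may be too narrow. Log2 CPM used a prior count of 2.

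The members, lists and tests were chosen with earlier results of these data known. The genes named were the 3 members and, by rule, the transcripts most like each of them. Planned lists of limb genes and cell type markers were not used, since 0 transcript IDs matched a table of names. The pools come from separate embryos per the labels' protocols, and p-values measure the spread between pools. RPF and RNA deviations from group means correlated in each of the 12 pools, at 0.112 to 0.384, and the labels' protocols describe both as parts of the same lysates, so the pool was also fitted as a block for TE. The alternatives were DESeq2 1.42.0 size factors and Wald test, limma-voom (limma 3.58.1), no filter, a replicate block, the contrast's genotypes alone and each pool left out. The fits were tested on simulated data of a fixed dispersion, with changes planted for Rps6 het in Trp53 WT. A log2 change of 0.5 was recovered for 54% of the changed transcripts in RNA, 60% in RPF and 28% in TE. A change of 1 was recovered for 99%, 98% and 89%. Changes were planted only in better counted transcripts, so counts as low as the Hoxb9 footprints were not covered. Each size of change was given to 100 transcripts, of 14401 run in RNA, while this comparison called 24.8% in the data. RNA and RPF counts were drawn independently of each other. The shares recovered therefore need not hold for the real libraries.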

Additional observations from a re-analysis of the deposited data

Results flagged for a closer look

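The change of Wnt3 RNA with Rps6 het differed between the Trp53 backgrounds, by 0.66 in log2 in the interaction test (edgeR adjusted p = 0.00316). It was a rise of 0.51 with Trp53, with all 3 Rps6 het pools above all 3 Rps6 WT pools, and a value of −0.15 without it. Groups of 3 are too small for a test of single outlying libraries, and none was made.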

How the results depend on the processing

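Of 583 alternative values for the 45 tests of the 3 transcripts, 550 kept direction and call, 9 lost the call, 1 gained it and 23 changed sign. All 23 sign changes arose on leaving out 1 pool, and in none was the value called (0). With only the genotypes of the contrast in the fit, Trp53 loss in Rps6 het limbs gave 0.231 for Tbx2 RNA and −0.307 for Wnt3 RNA, no longer called, and Trp53 loss with Rps6 intact gave 0.345 for Wnt3 RNA, then called. Leaving out 1 pool gave 0.187 to 0.306 and −0.372 to −0.244 for the first 2 of these.

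Other ranges over left-out pools crossed 0, and the cause was not tested. For Hoxb9 RNA they were −0.133 to 0.198 for Rps6 in Trp53 null and −0.242 to 0.09 for Trp53 in Rps6 WT. For Hoxb9 RPF they were −0.303 to 0.142 for the interaction and −0.294 to 0.151 for Trp53 in Rps6 het. For Hoxb9 TE they were −0.172 to 0.564 for the interaction, −0.61 to 0.123 for Rps6 in Trp53 WT, −0.619 to 0.114 for Trp53 in Rps6 het and −0.153 to 0.086 for Trp53 in Rps6 WT. For Tbx2 they were −0.002 to 0.12 in RNA for Rps6 in Trp53 null, −0.005 to 0.084 in RNA for Trp53 in Rps6 WT, −0.116 to 0.034 in RPF for the interaction, −0.138 to 0.011 in RPF for Rps6 in Trp53 null and −0.027 to 0.092 in TE for Trp53 in Rps6 WT. For Wnt3 TE the range was −0.007 to 0.182 for Rps6 in Trp53 WT.

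The replicate number as a replicate block, and the pool as a block for TE, changed no call or direction of the 3 transcripts in 60 fits. The interaction of Wnt3 RNA was 0.658 with the replicate block. Deviations of same-numbered pools of different genotypes correlated at 0.042 on average in RNA, from −0.279 to 0.253, and at 0.00088 in RPF. Pools of unlike number gave −0.021 on average in RNA. With the replicate block, RNA calls over all transcripts were 2000 against 1376 for the interaction and 4078 against 3580 for Rps6 het in Trp53 WT. These averages do not settle whether replicate numbers pair the genotypes, and a shared batch was not tested. DESeq2 gave no adjusted p for 16 of the tests, and the fit of the Rps6 het genotypes alone did not test Hoxb9 in RPF. Over all transcripts, counts of calls moved, also on leaving out 1 pool (RNA for Rps6 het in Trp53 null 4 to 47, the RNA interaction 641 to 1806, TE for Rps6 het 58 to 177 in Trp53 WT and 0 to 20 in Trp53 null). In RNA, Trp53 loss with Rps6 intact called 17 transcripts, against 252 without a filter, 64 with DESeq2, 47 with the replicate block and 251 with only its genotypes in the fit. Rps6 het in Trp53 null called 10, against 28 without a filter, 45 with DESeq2 and 4 with only its genotypes, and Trp53 loss in Rps6 het called 1919 against 1224 with only its genotypes. In RPF, Rps6 het in Trp53 null called 110, against 285 without a filter and 168 with the replicate block, and Trp53 loss with Rps6 intact called 9, against 48 without a filter. In TE, Rps6 het in Trp53 WT called 165, against 282 without a filter, 261 with DESeq2, 248 with the replicate block and 393 with the pool as a block. Rps6 het in Trp53 null called 28 in TE, against 64 with DESeq2, 57 with the pool as a block and 0 with only its genotypes. The TE interaction called 10, against 43 without a filter, 18 with DESeq2 and 44 with the pool as a block. Trp53 loss in Rps6 het called 23 in TE, against 56 without a filter, 54 with DESeq2, 40 with the replicate block, 77 with the pool as a block and 14 with only its genotypes, and with Rps6 intact 0, against 12 without a filter and 1 with only its genotypes. Hoxb9 footprints are the thinnest values, at 6 to 22 counts.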
